A study of Mus musculus with 4 samples.

Results

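Cd40lg helper T cells were defined among CD4 T cells of the mouse liver as cells with a transcript of Cd40lg, the gene of CD40 ligand, and with no transcript of the leading genes of the other T cell programmes. They were chosen by raw unique molecular identifiers (UMIs, each standing for 1 captured RNA molecule) in cells with more than 200 detected genes and under 5% mitochondrial UMIs. A member had at least 1 Cd40lg UMI and at least 1 UMI over Cd3e, Cd3d and Cd3g, and it had 0 UMIs of Ifng, Il17a, Il17f, Fasl, Klrk1, Lef1, Foxp3, Mki67, Siglech and Lyz2. The rule was met by 1541 of 28018 cells, of which 1006 belonged to the WT-labelled and 535 to the dKO-labelled library. Because these measured values selected the cells, Cd40lg, the CD3 genes and the barred genes are described here only to characterize the choice, and no test was made on them.

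Hepatic CD4 T cells had been sorted from male mice fed a high-fat diet with 60 kcal% fat, 0.1% methionine and no choline for 8 weeks, which induces steatohepatitis, and 2 mice were pooled into 1 library per genotype. The WT library came from wild-type mice, and the dKO library came from mice with floxed Nr4a1 and Nr4a2 alleles and a Cd4-Cre transgene. Cd4-Cre acts during T cell development in the thymus, so that it deletes in CD8 as well as CD4 T cells and not in myeloid cells. The mice within a pool could not be separated, and with 1 library per genotype there was no replicate and no test between genotypes. All intervals below are exact 95% intervals that cover counting error only, and differences between the libraries describe 2 pools of mice.

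CD40 ligand is the TNF family protein by which helper T cells activate B cells, dendritic cells and macrophages that carry CD40. Activated helper T cells can also make the related ligands RANKL (Tnfsf11), which acts on dendritic cells and osteoclast precursors, CD30 ligand (Tnfsf8), and lymphotoxin beta (Ltb). Naive T cells carry little CD40 ligand, T cell receptor signalling induces it, and Tregs carry little of it. In this build (GRCm38, GENCODE M21), Cd40lg lies at chrX:57212143-57224042 on the plus strand. Tnfsf11 lies at chr14:78277445-78308043 and Tnfsf8 at chr4:63831308-63861347, both on the minus strand.

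The members held 1800825 UMIs in the WT library and 862748 UMIs in the dKO library. Their median depth was 1558.5 UMIs and 912 genes per cell in the WT library and 1412 UMIs and 803 genes in the dKO library, close to the medians of all cells (1679 and 1685 UMIs). A set of 242 barcodes occurred in both libraries, among them those of 17 and 10 members. The targeted genes did not follow the labels: the level of Nr4a1 in members was 802 CPM (counts per 1000000 UMIs of the summed cells; 762 to 845) in the WT library and 1845 CPM (1756 to 1938) in the dKO library. The level of Nr4a2 was 209.9 CPM (189 to 232) and 399.9 CPM (359 to 444). UMIs of a 5′ library can come from a transcript that lacks a deleted exon, so these levels do not check the deletion, and the libraries are named below by their labels.

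Members made up 9.53% of the cells of the WT library (8.98% to 10.1%) and 3.06% of the dKO library (2.81% to 3.33%). Among cells that met the CD3, Siglech and Lyz2 conditions the shares were 13.5% of 7445 and 4.68% of 11431. A gap in the same direction was present in Cd40lg alone, which had a UMI in 37.6% of all WT and 9.74% of all dKO cells. Of T cells with 0 UMIs of all 8 barred T cell genes, 38.3% of 2625 carried a Cd40lg UMI in the WT library (36.5% to 40.2%) and 9.95% of 5379 in the dKO library (9.16% to 10.8%). Within the rule, 55.6% of WT and 68.4% of dKO members had 1 Cd40lg UMI, 23.8% and 20.2% had 2, and 20.7% and 11.4% had 3 or more.

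The lower share of Cd40lg cells in the dKO library was also seen in the T cell groups that the rule left out. With every cell thinned to 1000 UMIs, Cd40lg was detected in 37.9% of non-cycling Ifng cells of the WT library, taken without Foxp3 or Il17 UMIs, and in 17.4% of those of the dKO library. In Lef1 cells, which carry a gene of naive and central memory T cells, the shares were 25.4% and 11.1%. In Foxp3 cells, which carry the gene of the Treg lineage factor, they were 13.2% and 2.65%. Without thinning the shares were 57.6% and 27.5% in Ifng cells, 40.5% and 16.6% in Lef1 cells, and 25.4% and 5.02% in Foxp3 cells. Cells with no CD3 UMI and a Siglech or Lyz2 UMI, which are dendritic and other myeloid cells by those genes, gave the background from free RNA, with thinned shares of 1.56% and 0.183% at median depths of 1530 and 2903.5 UMIs.

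The bars of the rule removed most Cd40lg T cells. Of 3382 such cells in the WT library, 30.5% had a Lef1 UMI, 29.5% an Ifng UMI and 22.9% a Fasl UMI, while 3.81% had a Foxp3 UMI and 3.28% an Il17a UMI. Of 1394 in the dKO library, 22.0% had a Lef1 UMI, 16.9% an Ifng UMI and 13.4% a Fasl UMI, while 12.3% had a Foxp3 UMI and 9.11% an Il17a UMI. What remained as members was 29.7% and 38.4% of the Cd40lg T cells. A gene at 0 UMIs in a cell of this depth may still be expressed.

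CD3 detection was part of the rule and describes the choice. Cd3e had a UMI in 78.3% of WT and 76.3% of dKO members, and 11.7% and 9.91% rested on a single CD3 UMI. The labelled cell type was checked against Cd4 and markers of other cells. Cd4 had a UMI in 35.7% of WT members (32.7% to 38.7%) and 64.3% of dKO members (60.1% to 68.4%). The Cd4 level was higher in the dKO library in every T cell group compared, by a log2 ratio of 1.62 in members (1.46 to 1.79), 1.98 in Cd40lg-zero cells, 1.63 in Ifng cells, 1.61 in Lef1 cells and 2.12 in Foxp3 cells. Cd8a and Cd8b1 together were at 10.0 and 9.27 CPM in members against 271 and 329 CPM in the CD3-zero cells with Siglech or Lyz2. The 4 B cell markers summed to 7.22 and 11.6 CPM, with 1 and 2 of the 4 at 0 UMIs, and the 8 myeloid markers outside Lyz2 to 39.98 and 39.4 CPM against 907 and 1859 CPM in the CD3-zero cells. Markers of plasmacytoid dendritic cells outside Siglech summed to 163 and 203 CPM against 10582 and 11192 CPM there.

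Treg genes other than Foxp3 were present in the members and differed between the libraries. Il2ra, Ctla4, Ikzf2, Tnfrsf18 and Nrp1 together reached 809 CPM in WT members and 1676 CPM in dKO members. A UMI of Ctla4, Ikzf2, Il2ra or Tnfrsf9 was found in 42.0% of WT members (39.0% to 45.2%) and 56.8% of dKO members (52.5% to 61.1%). Activated conventional T cells carry these genes too, and how many members were Tregs without a detected Foxp3 UMI was not tested. Markers of the other helper lineages stood at 441 and 356 CPM for Th1 cells without the barred Ifng, 165 and 254 CPM for follicular helper cells, 249 and 269 CPM for Th2 cells and 34.4 and 56.8 CPM for Th17 cells, the last without the barred Il17a and Il17f.

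The name of the group, helper cells without effector cytokines, covers the cytokines that the rule barred, and others were read beside the CD3-zero cells at 1000 UMIs per cell. Il2, the growth factor of activated T cells, was detected in 5.86% of WT members (4.37% to 7.68%) and 4.41% of dKO members (2.71% to 6.72%), against 0.209% of 959 WT and 0 of 3278 dKO CD3-zero cells (exact upper limit 0.112%). Il4 was in 2.75% and 1.76% of members against 0.209% and 0. Csf2 was in 1.32% and 1.10% of members against 0.104% and 0. Tnf was in 7.30% of WT members (5.63% to 9.27%) and 6.39% of dKO members (4.32% to 9.05%). It was in 5.21% (3.89% to 6.82%) and 7.87% (6.97% to 8.85%) of the CD3-zero cells, and the members did not stand apart from them. Whether the CD3-zero cells express Tnf themselves was not tested, so they do not serve as a background from free RNA for this gene. Without thinning, Il2 had a UMI in 8.95% and 5.61% of members, Il4 in 4.47% and 2.80% and Tnf in 10.8% and 8.60%, while Tnf had one in 9.63% and 19.7% of CD3-zero cells. The median depth of all CD3-zero cells was 1530 and 2903.5 UMIs.

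The members were set beside their counterpart, the T cells that met every condition of the rule except that they had 0 Cd40lg UMIs (1619 WT and 4844 dKO cells). The comparison asks which genes go with Cd40lg once cells with a UMI of a barred gene are out on both sides. It was made within each library on summed UMIs. Cells of a barred programme with no detected UMI of its gene can remain. A UMI of Ctla4, Ikzf2, Il2ra or Tnfrsf9 was in 37.2% of WT and 83.3% of dKO counterpart cells, beside 42.0% and 56.8% of members. How many counterpart cells were Tregs was not tested. Of 3155 genes tested in both libraries, 1 gene outside the rule was over 2-fold higher in members in both, a share of 0.0317%, and it was Tnfsf11. Another 6 genes, or 0.19%, were over 2-fold lower in both. As the counterpart was chosen by the lack of Cd40lg and its cells were shallower (medians of 1192 and 1163 UMIs), these differences are a description and carry no test.

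Tnfsf11, the gene of RANKL, stood at 209 CPM in WT members (189 to 232) and 91.1 CPM in their counterpart, a log2 ratio of 1.20 (0.95 to 1.45). In the dKO library it stood at 289 CPM in members (254 to 327) and 62.2 CPM in the counterpart, a log2 ratio of 2.21 (1.98 to 2.44). Both libraries thus had the higher level in members, and the dKO library had the higher member level and the lower counterpart level. Without cells that carried a UMI of Ctla4, Ikzf2, Il2ra or Tnfrsf9, which were 83.3% of the dKO counterpart and 37.2% of the WT counterpart, the ratios were 0.99 in the WT and 1.02 in the dKO library. These 4 genes were chosen for removal after seeing the data. At 1000 UMIs per cell, Tnfsf11 was detected in 14.8% of WT members (12.5% to 17.4%) and 16.96% of dKO members (13.6% to 20.7%). The next share was that of Ifng cells, with 9.03% (7.51% to 10.8%) and 7.37% (5.41% to 9.77%), followed by the counterpart with 5.91% and 4.77%. The Foxp3 and Lef1 cells ranged from 2.44% to 5.29%, and the CD3-zero cells had 1.04% and 0.0610%. At this depth the interval of the members did not overlap those of the other 4 T cell groups compared. At 2000 UMIs per cell it overlapped that of the counterpart in the WT library (10.3% to 19.9%) and that of Ifng cells in both, with 19.0% to 28.7% beside 13.4% to 19.2% in the WT library and 17.6% to 34.6% beside 9.53% to 19.9% in the dKO library. Without thinning it overlapped in the WT library (17.9% to 23.0% beside 15.3% to 19.3%) and not in the dKO library (18.4% to 25.6% beside 8.58% to 13.3%). Cells with Il17a, Il17f, Fasl, Klrk1 or Mki67 were not compared.

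**Figure D1:**
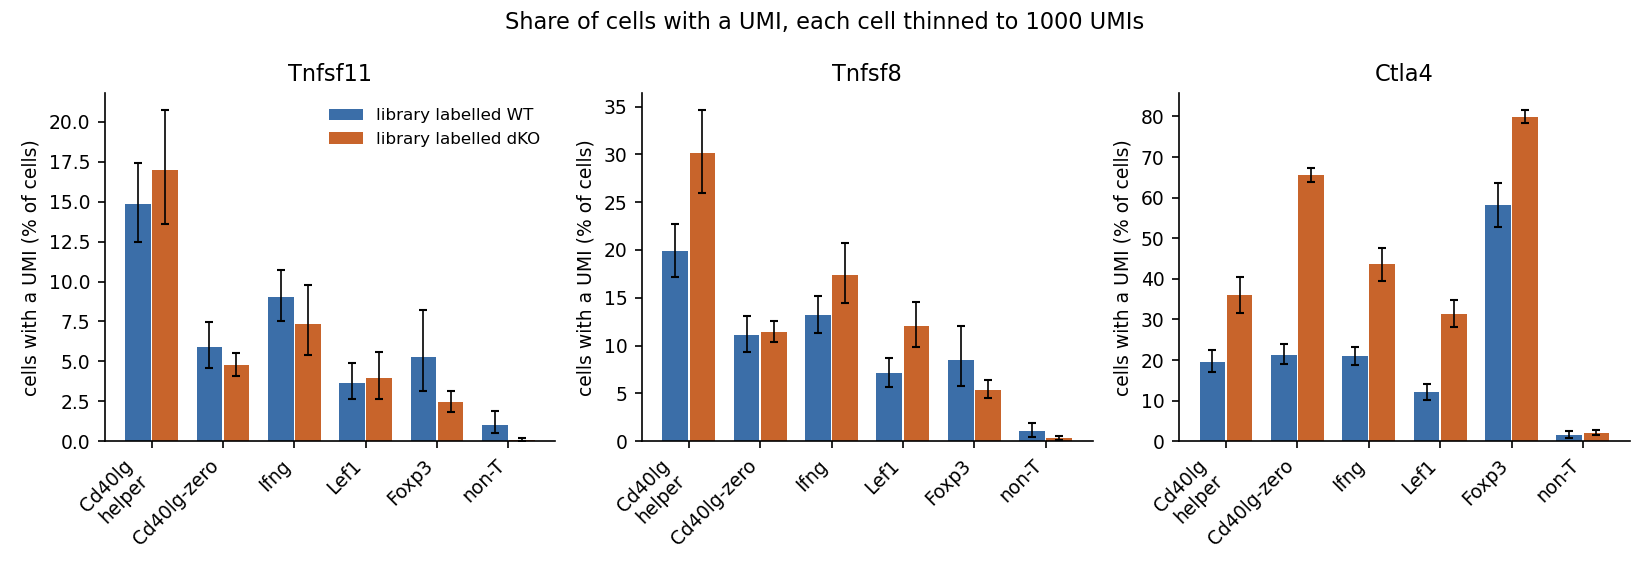
Share of cells with a UMI of Tnfsf11, Tnfsf8 and Ctla4 (% of cells, each cell thinned to 1000 UMIs) in 6 groups of cells, with WT and dKO libraries as paired bars and exact 95% binomial intervals as error bars. At this depth Tnfsf11 and Tnfsf8 are highest in the Cd40lg helper cells of both libraries, whereas Ctla4 is highest in Foxp3 cells.

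Tnfsf8, the gene of CD30 ligand, was likewise higher in the members than in the counterpart. Its level was 305 CPM in WT members (280.4 to 332) and 172 CPM in the counterpart, a log2 ratio of 0.83 (0.64 to 1.02). In dKO cells it was 549 CPM (501 to 601) and 192 CPM, a log2 ratio of 1.52 (1.36 to 1.67). The thinned share of Tnfsf8 cells was 19.9% in WT members (17.2% to 22.7%) and 30.2% in dKO members (26.0% to 34.6%). Ifng cells had 13.2% and 17.4%, the counterpart 11.1% and 11.4%, Lef1 cells 7.09% and 12.1%, Foxp3 cells 8.53% and 5.39%, and the CD3-zero cells 1.04% and 0.305%. Without thinning, members and Ifng cells of the WT library overlapped in Tnfsf8 (20.5% to 25.8% beside 18.9% to 23.3%), and at 2000 UMIs those of the dKO library did (32.5% to 51.6% beside 27.3% to 41.2%). Without cells carrying the 4 Treg genes, the log2 ratio over the counterpart was 0.71 in the WT and 0.55 in the dKO library.

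Ltb and Tnf differed from Tnfsf11 and Tnfsf8. The level of Ltb was 576 CPM in WT members and 702 CPM in the counterpart, and 835 and 943 CPM in the dKO library, so that members were slightly lower in both (log2 ratios of -0.29 and -0.18). Tnf was at 86.1 CPM in WT members and 75.7 CPM in the counterpart, a log2 ratio of 0.19 whose interval spanned 0 (-0.14 to 0.51). For dKO cells Tnf was at 88.1 and 37.2 CPM, a log2 ratio of 1.24 (0.85 to 1.62). In that library Tnf reached 50 CPM in members only, so it was tested only through the group where it was higher. Of the 4 ligand genes outside the rule that reached 50 CPM, 3 were higher in members in both libraries by their ratio and 1 was lower, against 853 higher and 807 lower of all 3155 genes, with median log2 ratios of 0.51 and 1.38 against 0.06 and -0.08 over all genes tested in each library. Tnfsf14, Tnfsf9, Tnfsf10, Tnfsf4 and Lta each stayed below 50 CPM. The receptors of these ligands, including Cd40 with 0 UMIs in WT and 1 UMI in dKO members and the RANKL receptor gene Tnfrsf11a with 3 and 2 UMIs, did not reach the level for testing.

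Of the 12 cytokine genes outside the rule, Il2 and Areg reached 50 CPM in both libraries, of which Il2 was higher in members in both and Areg lower by its ratio. Il2 reached 50 CPM in members only, so it was tested only through the group where it was higher. The level of Il2 was 62.7 CPM in WT members (51.7 to 75.4) and 33.1 CPM in the counterpart, a log2 ratio of 0.92 (0.49 to 1.37). In the dKO library it was 52.2 CPM (38.0 to 69.8) and 10.9 CPM, a log2 ratio of 2.26 (1.69 to 2.82). The intervals of the WT and dKO members overlapped. Areg, the gene of the repair factor amphiregulin, was at 193 and 208 CPM in WT members and their counterpart, a log2 ratio of -0.11 whose interval spanned 0 (-0.31 to 0.10), and at 348 and 582 CPM in the dKO library, a log2 ratio of -0.74 (-0.92 to -0.57). Il4 and Csf2 stayed below the level for testing in both libraries. Il4, the signature cytokine of Th2 cells, was at 33.9 and 47.5 CPM in members and at 19.5 and 8.76 CPM in the counterparts. Csf2, the gene of GM-CSF, was at 47.8 and 26.7 CPM in members and 23.6 and 6.15 CPM in the counterparts. In thinned WT cells the shares of these 2 genes overlapped between members and counterpart, with 2.75% and 2.15% for Il4 and 1.32% and 1.08% for Csf2. Il10, a cytokine of many effector Tregs, went the other way in the dKO library, with 26.7 CPM in members and 157 CPM in the counterpart.

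Other genes followed at the higher end. Ramp3, which modifies calcitonin family receptors, was at 158 CPM in WT members and 90.6 CPM in the counterpart, and at 227 and 71.3 CPM in the dKO library, with log2 ratios of 0.80 (0.53 to 1.07) and 1.67 (1.42 to 1.92). Ccr4, a chemokine receptor of Th2 cells and skin-homing T cells, was at 148 and 80.2 CPM in the WT library and at 59.1 and 24.7 CPM in the dKO library, with log2 ratios of 0.88 and 1.26. Furin, a proprotein convertase, had log2 ratios of 0.97 (0.64 to 1.31) and 1.12 (0.75 to 1.46). In the dKO counterpart Ccr4 and Furin (46.6 CPM) were below 50 CPM. In that library both were therefore tested only through the members, where they were higher. Acvr2a, an activin receptor, Abcb1b, an efflux transporter, Nabp1, and St3gal6, a sialyltransferase, completed this end with log2 ratios between 0.77 and 1.44. Without cells carrying the 4 Treg genes, the dKO ratio of St3gal6 was -0.03.

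The 6 genes over 2-fold lower in members of both libraries were Gzmb, Cd83, Tnfrsf9, Rgs16, Cd27 and Ikzf2. Gzmb, which encodes the cytotoxic protease granzyme B, was at 23.9 CPM in WT members and 65.2 CPM in the counterpart, and at 61.4 and 209 CPM in the dKO library. In the WT library Gzmb reached the minimum of 50 CPM only in the counterpart. Tnfrsf9, the costimulatory receptor 4-1BB, was at 61.1 and 156 CPM and at 217 and 875 CPM. Ikzf2, the gene of the Treg factor Helios, was at 111 and 247 CPM and at 293 and 947 CPM. The log2 ratios of these genes ran from -1.45 to -1.16 in the WT library and from -2.01 to -1.45 in the dKO library. Ikzf2 and Tnfrsf9 are themselves among the 4 Treg genes, so that they are at 0 in the cells left after cells carrying Ctla4, Ikzf2, Il2ra or Tnfrsf9 are removed. In those cells the WT and dKO ratios were -0.47 and -2.08 for Gzmb, -0.38 and -3.22 for Cd83, -1.08 and -0.96 for Cd27, and -1.03 and -1.27 for Rgs16, which no longer reached 50 CPM in both libraries. The 1 gene over 2-fold higher in both was Il2, with 1.03 and 1.80.

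**Figure D2:**
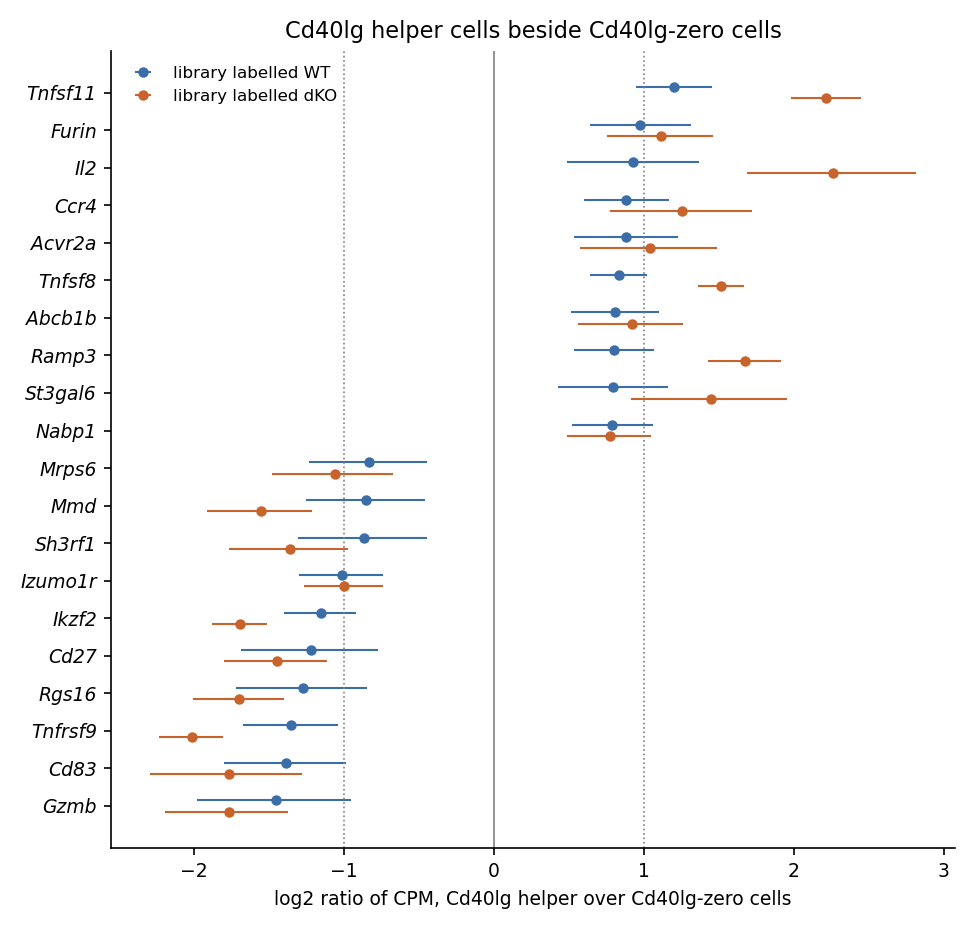
Log2 ratio of CPM in Cd40lg helper cells over Cd40lg-zero cells for the 10 genes at each end, by library, with exact 95% intervals of the ratio as bars. Tnfsf11 leads the higher end with 1.20 in the WT and 2.21 in the dKO library, and Gzmb, Cd83, Tnfrsf9 and Rgs16 lead the lower end.

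The follicular helper markers Cxcr5, Bcl6 and Il21 were low in the members, while 1 other of the 5 markers reached 50 CPM in both libraries. The 5 together were at 165 and 254 CPM in members and 190 and 322 CPM in the counterparts. Cxcr5, the receptor that takes helper cells to follicles, was at 7.22 CPM in WT and 9.27 CPM in dKO members, Bcl6, the lineage factor, at 36.1 and 33.6 CPM, and Il21 at 1.67 and 6.95 CPM, from 3 and 6 UMIs. Of the 14 genes of the follicular helper list, 7 reached the level for testing against the counterpart, 0 of them were higher in members in both libraries and 4 were lower, where 853 of the 3155 genes were higher and 807 lower. Izumo1r, the gene of folate receptor 4, was 82.7 and 149.5 CPM in members against 167 and 299 CPM in the counterparts. Icos, the costimulatory receptor of helper cells, was at 586 and 545 CPM in members and had a log2 ratio of 0.49 in the WT and -0.29 in the dKO library.

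Among costimulatory and checkpoint receptors, 11 of 14 genes were tested. Of these, 8 were lower in members of both libraries and 1, Cd28, was higher, beside 807 lower and 853 higher of all 3155 genes. Of the 5 Treg markers outside Foxp3, 4 were lower in both and 1 was higher, with medians of -0.26 in the WT and -1.16 in the dKO library. These markers summed to 1676 CPM in dKO members and 3965 CPM in the dKO counterpart, and their part in the result was not tested. The Cd28 level was 642 CPM in WT and 512 CPM in dKO members, with log2 ratios of 0.55 (0.43 to 0.68) and 0.38 (0.23 to 0.52). Ctla4, the inhibitory receptor of Tregs and activated T cells, had log2 ratios of -0.41 and -1.42, and Tnfrsf4, which encodes OX40, had -0.65 and -1.07. Of genes induced by T cell receptor signalling, 10 of 17 tested were higher in both libraries and 2 were lower, where 853 of the 3155 genes were higher and 807 lower. Nr4a3, the family member that was not targeted, was at 394 and 392 CPM in members with log2 ratios of 0.75 (0.58 to 0.91) and 0.29 (0.12 to 0.46), and Nfkbid, an NF-kB regulator, had 0.62 and 0.50. Cd69, an early activation receptor that the lists place with the residence genes, had 0.62 and 0.79.

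Of 8 tested recirculation genes, 2 were higher in members of both libraries and 0 were lower in both. Of all 3155 genes, 853 were higher in both and 807 were lower. The medians of the recirculation genes were -0.24 in the WT and 0.78 in the dKO library. Ccr7, the lymph node homing receptor, was at 114 CPM in WT members and 278 CPM in the counterpart, a log2 ratio of -1.28 (-1.51 to -1.05), while it was at 147 and 84.3 CPM in the dKO library, a log2 ratio of 0.80 (0.51 to 1.08). The member levels were close to each other and the counterpart levels were far apart. Tcf7, a factor of naive and memory T cells, was at 268 and 246 CPM in members with log2 ratios of 0.00 and 1.19. S1pr1, the receptor for egress from tissues, had -0.27 and 1.09, and Il7r, the survival receptor of resting T cells, had 0.22 and 1.13. Without cells carrying the 4 Treg genes, the dKO ratios of Tcf7 and S1pr1 were -0.01 and -0.09.

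Cxcr6 and Rgs1 had the reverse arrangement. Cxcr6, a homing receptor of liver T cells, was at 492 CPM in WT members and 289 CPM in the counterpart (log2 ratio 0.77), and at 277 and 372 CPM in the dKO library (-0.42). Rgs1, a regulator of chemokine signalling that is high in resident T cells, was at 1501 and 937 CPM in the WT library (0.68) and at 780.1 and 1032 CPM in the dKO library (-0.40). Itgb1, an integrin chain, had log2 ratios of 0.17 and 1.32. The type 1 factor Tbx21 (133 and 86.9 CPM in members) and the type 2 factor Gata3 (135 and 129.8 CPM) differed little from the counterpart, with log2 ratios between -0.10 and 0.20.

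The Tnfsf11 and Ramp3 levels were set beside the number of Cd40lg UMIs, where the bin of 0 UMIs lies just outside the rule and that of 1 UMI just inside it. The Tnfsf11 level was 91.1 CPM in WT cells with 0 Cd40lg UMIs, 157 CPM with 1, 202 CPM with 2 and 313 CPM with 3 or more. In the dKO library the levels were 62.2, 221, 404 and 434 CPM. Cells with more Cd40lg UMIs were also deeper, with median depths of 1192, 1388, 1673 and 2057 UMIs in the WT and 1163, 1378, 1534 and 1644 UMIs in the dKO library. Ramp3 went from 90.6 to 124, 166 and 212 CPM in the WT and from 71.3 to 212, 239 and 283 CPM in the dKO library. The intervals of the bins of 2 and of 3 or more UMIs overlapped in the dKO library for Tnfsf11 (318 to 505 and 321 to 573 CPM) and for Ramp3 (174 to 320 and 194 to 399.8 CPM), and in the WT library for Ramp3 (130.4 to 208 and 173 to 258 CPM). Ccr4 was at 80.2, 115, 135 and 221 CPM in WT cells and at 24.7, 57.0, 95.6 and 8.85 CPM in dKO cells, the last from 1 UMI (0.224 to 49.3 CPM). These genes were named for a higher level in members than in the counterpart, so the step from 0 UMIs restates that choice.

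For Tnfsf8 and Il2 the top 2 bins overlapped in both libraries. Tnfsf8 was at 172, 276, 366 and 302 CPM in WT cells with 0, 1, 2 and 3 or more Cd40lg UMIs, and at 192, 458, 738 and 690.3 CPM in dKO cells. Il2 was at 33.1, 50.1, 71.8 and 77.7 CPM in WT cells and at 10.9, 37.4, 90.3 and 62.0 CPM in dKO cells. In the last 2 of these dKO bins the Tnfsf8 intervals were 621 to 872 and 546 to 862 CPM, and those of Il2 were 52.6 to 145 CPM from 17 UMIs and 24.9 to 128 CPM from 7 UMIs. Ikzf2 and Ctla4 ran the other way. Ikzf2 in dKO cells was at 947, 362, 191 and 124 CPM, and Ctla4 at 1842, 732, 648 and 522 CPM. In WT cells the Ikzf2 level was 247 CPM at 0 UMIs and 94.5 CPM to 119 CPM in the members. The largest step of both genes in the dKO library lay between 0 and 1 UMI, at the boundary of the rule, and the top bin of that library held 61 cells.

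**Figure D3:**
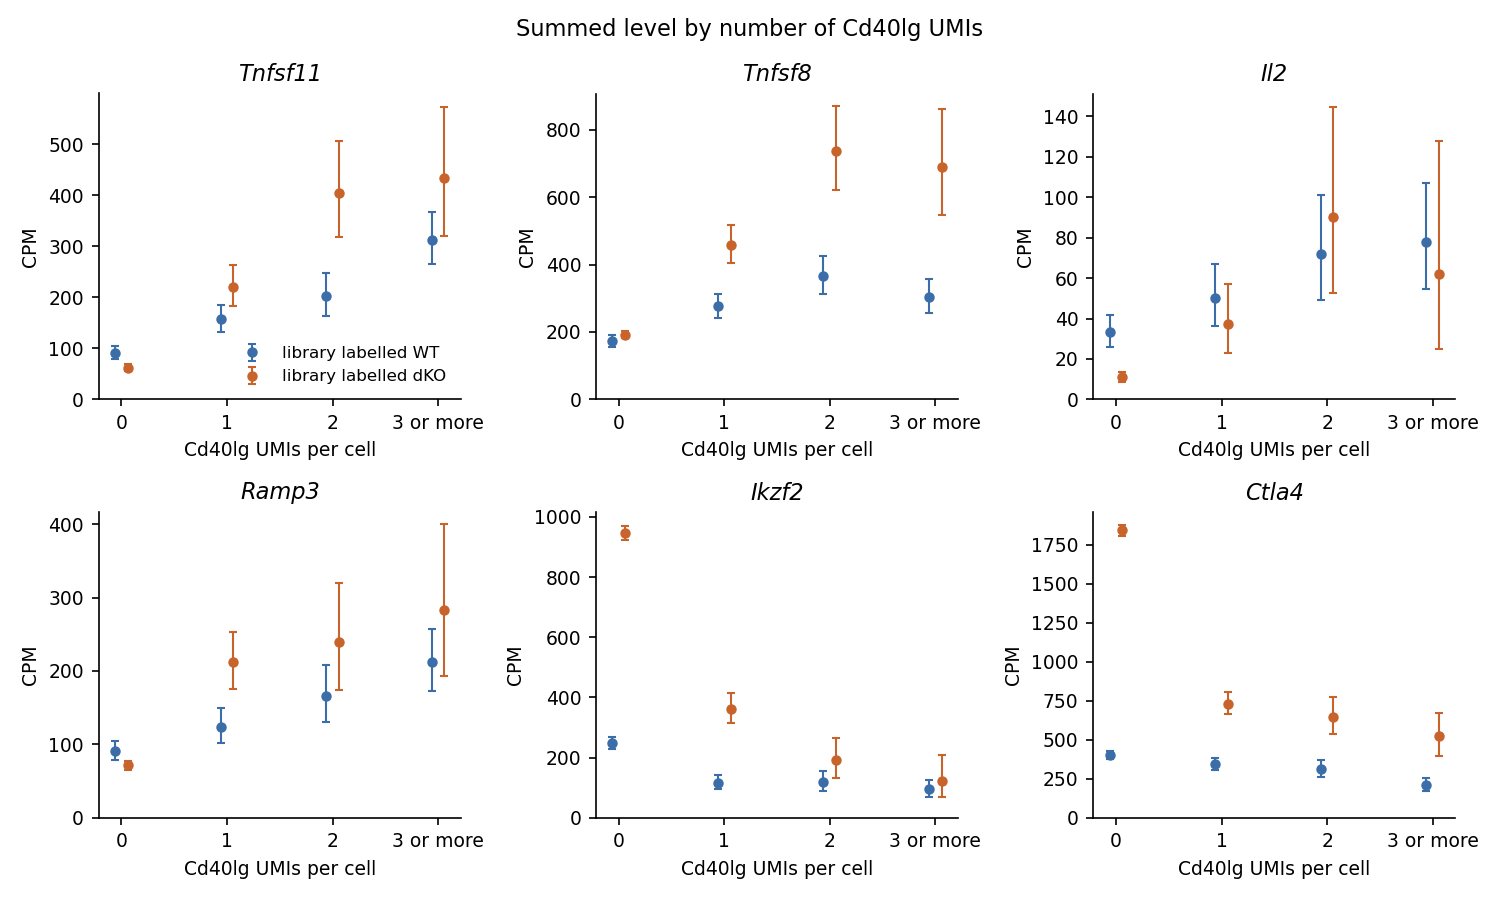
Summed level (CPM) of 6 genes in T cells with none of the barred genes, by the number of Cd40lg UMIs in the cell (0, 1, 2, 3 or more), in the WT and dKO libraries, with exact 95% Poisson intervals as error bars. Tnfsf11 stands at 313 CPM in the WT and 434 CPM in the dKO library at 3 or more UMIs, and Ikzf2 and Ctla4 drop in the dKO library from 947 and 1842 CPM at 0 UMIs to 124 and 522 CPM at 3 or more.

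Within the members, Tnfsf11 was found more often beside Tnfsf8, Ramp3 and Il2. In thinned members with a Tnfsf11 UMI, Tnfsf8 was detected in 30.6% of WT cells (22.7% to 39.6%) and 42.9% of dKO cells (31.6% to 54.6%). In members without one it was detected in 18.0% (15.2% to 21.0%) and 27.6% (23.1% to 32.4%). Ramp3 was in 22.6% and 24.7% of Tnfsf11 members and in 11.2% and 13.5% of the others. For Il2 the shares were 10.5% and 9.09% beside 5.06% and 3.45%, and these rested on 13 and 7 cells with both genes. All 3 genes were more frequent beside Tnfsf11 in each library, and only the WT intervals for Tnfsf8 and Ramp3 did not overlap. Tnfsf8 was also in 29.9% of WT members with a Ctla4 UMI (23.0% to 37.5%) and 17.4% of those without (14.6% to 20.5%). In dKO members these shares were 35.6% (28.3% to 43.4%) and 27.1% (22.1% to 32.6%).

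The recirculation genes Ccr7 and Klf2 were found less often in WT members with a Cxcr6 UMI, while Tcf7 did not divide beyond its intervals. Ccr7 was detected in 2.21% of WT members with a Cxcr6 UMI (0.814% to 4.74%) and in 8.51% of those without (6.34% to 11.1%). In dKO members the shares were 3.41% (0.709% to 9.64%) and 11.2% (8.16% to 14.9%). Klf2, a factor that keeps T cells quiescent and recirculating, was in 26.8% and 40.2% of WT members with and without Cxcr6, and in 27.3% and 39.6% of dKO members. Tcf7 was in 21.0% and 21.6% of WT members with and without Cxcr6, and in 17.05% (9.87% to 26.6%) and 23.0% (18.7% to 27.6%) of dKO members. Tnfsf11 did not divide in this way, with 15.8% and 14.4% of WT members with and without Cxcr6 and 18.2% and 16.7% of dKO members. Tnfsf8 was detected in 22.8% of dKO members with a Ccl5 UMI (17.4% to 29.0%) and in 37.0% of those without (30.8% to 43.5%), while in WT members the shares were 17.3% and 21.6%.

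The members of the dKO library were then set beside those of the WT library. Of 3431 genes with at least 50 CPM in either library, 51 (1.49%) were over 2-fold higher in dKO members and 52 (1.52%) over 2-fold lower, and the median log2 ratio was -0.03. In the counterpart 191 of 3572 genes were higher and 78 lower by that much. In Lef1 cells the counts were 110 and 28 of 3355, in Ifng cells 81 and 68 of 3590, and in Foxp3 cells 116 and 109 of 3722.

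The genes of the helper ligands were each less than 2-fold apart between the libraries. Tnfsf11 was higher in dKO members by a log2 ratio of 0.46 (0.23 to 0.70), Tnfsf8 by 0.85 (0.67 to 1.03) and Ltb by 0.54 (0.40 to 0.67), while Tnf had a ratio of 0.03 (-0.38 to 0.44). Without the cells carrying the 4 Treg genes, the ratio of Tnfsf11 was 0.81 and that of Tnfsf8 was 1.19, which is past 2-fold. In the other groups the ratio of Tnfsf11 was -0.55 in the counterpart, -0.33 in Ifng cells, 0.38 in Lef1 cells and -1.45 in Foxp3 cells. For Il2 the ratio was -0.27 in members, with an interval that spanned 0 (-0.80 to 0.24), and -1.60 in the counterpart, -1.08 in Ifng cells, -0.43 in Lef1 cells and -3.72 in Foxp3 cells. The difference between these groups was not tested. The median of the 4 tested ligand genes was 0.50.

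Costimulatory and checkpoint receptors had a median of 1.18 over 11 tested genes, of which 6 were over 2-fold higher in dKO members and 0 lower, beside 1.49% higher and 1.52% lower of all genes tested. Tnfrsf4 was at 259.9 CPM in WT members (237 to 285) and 855 CPM in dKO members (795 to 919), a log2 ratio of 1.72. Ctla4 was at 302 CPM (277 to 329) and 686 CPM (632 to 744), a log2 ratio of 1.18. Tigit, an inhibitory receptor, was at 88.3 and 267 CPM, and Tnfrsf9 at 61.1 and 217 CPM. These receptors were higher in the dKO library in every T cell group, with Ctla4 ratios of 2.20 in the counterpart, 1.37 in Ifng cells, 1.79 in Lef1 cells and 0.82 in Foxp3 cells. The 5 Treg markers outside Foxp3, which include Ctla4 and Tnfrsf18, had the same median of 1.18 with 3 over 2-fold higher. They stood at 809 and 1676 CPM in the same members, and their part in the result was not tested.

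Of 16 tested genes of the type 1 programme, 6 were over 2-fold higher in dKO members and 0 lower, with a median of 0.23, against the same 1.49% and 1.52% of all genes. In WT members 12 genes of the list were over 50 CPM, and in dKO members 15 were. Some, Gzmb and Ccl4 among them, were therefore tested only through the dKO library, where they were higher. Ccl5, a chemokine of effector and memory T cells, was at 1422 CPM in WT members (1368 to 1478) and 4038 CPM in dKO members (3905 to 4175). Its log2 ratio was 1.51 in members and between 2.26 and 3.07 in the other T cell groups. Hopx, which is expressed in effector memory T cells, was at 267 and 576 CPM, and Gzmb at 23.9 and 61.4 CPM. Ccl4, another chemokine, was at 48.9 and 249 CPM. The CD3-zero cells had 10194 and 10945 CPM of Ccl4, and without the cells carrying the 4 Treg genes the Ccl4 ratio in members was -0.08 in place of 2.35. Cxcr6 was lower in dKO members, with a log2 ratio of -0.83 (-1.04 to -0.62), as was Tbx21 with -0.62 (-1.01 to -0.24).

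Of the residence genes, 1 of 9 tested was over 2-fold lower in dKO members and 0 were higher, with a median of -0.32, where 1.52% of all genes were lower. This was Itga1, the CD49a chain of resident T cells, at 75.0 CPM in WT and 23.2 CPM in dKO members, a log2 ratio of -1.69 (-2.45 to -1.01). Itga1 reached the minimum of 50 CPM only in the WT library, so it was tested only through the library where it was higher. It was lower in all the other T cell groups as well, by ratios between -1.62 and -1.21. Rgs1 had a ratio of -0.94 (-1.07 to -0.82) in members, and between -0.54 and 0.14 in the other T cell groups. Ccr4 was over 2-fold lower in dKO members, at 148 CPM (130.5 to 167) and 59.1 CPM (44.0 to 77.7), and it was the only one of 4 tested type 2 genes past that fold. None of 8 recirculation genes, 7 follicular helper genes and 5 survival genes was past 2-fold in either direction, with medians of 0.22, 0.47 and -0.01.

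The genes furthest apart between the libraries included some that were about as far apart in cells of other kinds. Cdk8, a kinase of the Mediator complex, was at 8123 CPM in WT and 2356 CPM in dKO members and at 6101 and 2178 CPM in the CD3-zero cells. Rgs10 and Krt83 had the lowest ratio, each -2.16, with Rgs10 at 186 and 41.7 CPM and Krt83 at 88.3 and 19.7 CPM. At the higher end Acod1 was at 9.44 and 55.6 CPM, from 17 and 48 UMIs, and Klrg1, a receptor of terminally differentiated T cells and effector Tregs, was at 21.1 and 77.7 CPM. Rgs10, Krt83, Acod1 and Klrg1 reached the minimum of 50 CPM only in the library where each was higher. The Acod1 ratio was 2.56 in members, 2.72 in Ifng cells and 0.21 in Foxp3 cells. Lgals7, a galectin gene, had a ratio of 2.32 in members and -0.21 to 1.05 in the other T cell groups.

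**Figure D4:**
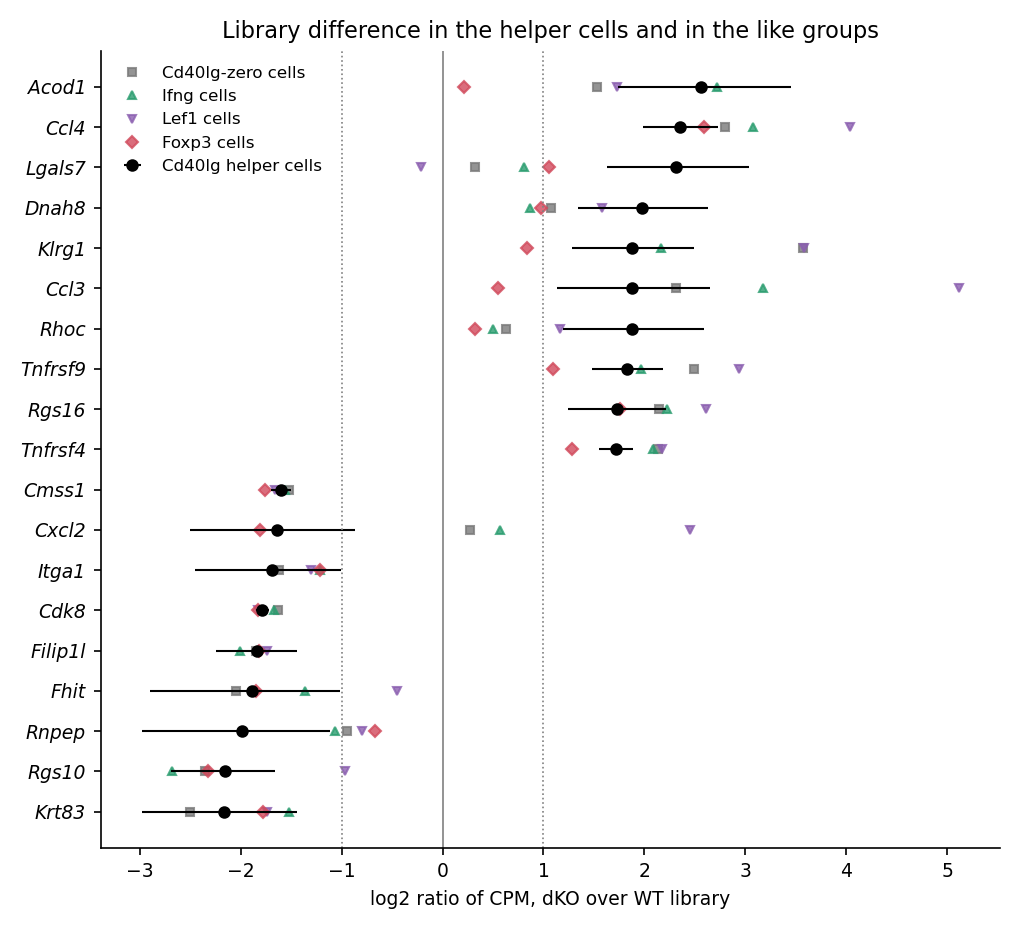
Log2 ratio of CPM in the dKO over the WT library for 10 genes at the higher and 9 at the lower end in Cd40lg helper cells (black circles, with exact 95% intervals as bars), with the ratio of the same genes in Cd40lg-zero, Ifng, Lef1 and Foxp3 cells as coloured symbols. Cdk8, Cmss1 and Filip1l are lower in the dKO library by a similar amount in all 5 groups, whereas Cxcl2 ranges from -1.81 in Foxp3 cells to 2.45 in Lef1 cells.

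T cell receptor chains connected the members to other cells of the same clone. A clonotype was taken as identical CDR3 nucleotide sequences of 1 TRA and 1 TRB chain, each the chain with the most UMIs in the cell. V and J genes were not part of this definition, and those named below are of 1 cell per clonotype. Both chains were read in 237 WT members (23.6%) and 88 dKO members (16.4%), which fell into 175 and 85 clonotypes. Of these members, 55.7% in the WT library (49.1% to 62.1%) and 31.8% in the dKO library (22.3% to 42.6%) belonged to a clonotype of at least 2 cells, and 38.0% and 12.5% to one of at least 5 cells. By TRB chain alone the shares in a clonotype of at least 2 cells were 61.6% and 46.5%. No clonotype occurred in both libraries, among 2810 in all.

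The place of the members among the T cell classes differed between the libraries. Each cell that met the CD3, Siglech and Lyz2 conditions was put in 1 class, by the first in the order Foxp3, then Ifng, Il17a or Il17f, then Mki67, then Fasl or Klrk1, then Lef1 of which it had a UMI, so that a class leaves out cells taken by an earlier one. In the WT library the members' 55.7% stood beside 54.2% for the Ifng, Il17a or Il17f class, 61.2% for Mki67 cells and 50.6% for the Fasl or Klrk1 class. The WT counterpart had 42.1%, Foxp3 cells 20.8% and Lef1 cells 12.9%. Among dKO cells the members' 31.8% stood beside 61.5% for the counterpart, 55.4% for Mki67 cells, 53.2% for Foxp3 cells and 50.6% for the Ifng, Il17a or Il17f class. The dKO Fasl or Klrk1 class had 41.9% and Lef1 cells 24.3%. The interval of the dKO members lay below that of the counterpart (57.8% to 65.2%) and of Foxp3 cells (49.4% to 56.9%). It overlapped that of the Fasl or Klrk1 class (32.3% to 51.9%) and of Lef1 cells (17.3% to 32.4%).

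The receptors of the clonotypes with the most members are given as CDR3 coding sequences from the receptor libraries. An identical pair of these sequences is what joins a helper cell to cells of other classes. The largest of them, in the WT library, joined TRAV7D-5 to TRAJ39 and TRBV13-1 to TRBJ2-2 and held 9 members among 70 cells.
WT TRA CDR3: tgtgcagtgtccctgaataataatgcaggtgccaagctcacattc
WT TRB CDR3: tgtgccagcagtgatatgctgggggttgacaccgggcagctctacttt
In the dKO library the largest of them joined TRAV7D-2 to TRAJ40 and TRBV29 to TRBJ2-2 and held 2 members among 15 cells.
dKO TRA CDR3: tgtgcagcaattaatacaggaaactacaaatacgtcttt
dKO TRB CDR3: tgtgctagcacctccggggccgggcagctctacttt

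The WT clonotype held, beside its 9 members, 25 cells of the Ifng, Il17a or Il17f class, 18 of the Mki67 class, 9 counterpart cells, 7 of the Fasl or Klrk1 class and 0 of the Foxp3 class, and 2 cells outside the CD3, Siglech and Lyz2 conditions. The second WT clonotype, with TRAV4-4-DV10 and TRBV31, had 9 members among 54 cells, of which 12 were in the Ifng, Il17a or Il17f class, 17 in the Fasl or Klrk1 class and 1 in the Foxp3 class. The dKO clonotype held 5 cells of the Ifng, Il17a or Il17f class, 3 counterpart cells, 3 of the Fasl or Klrk1 class and 2 of the Foxp3 class. Cells of 1 clone therefore fell into several classes of the rule in both libraries. A class can differ from the members by as little as 1 UMI of a barred gene. Of clonemates in the classes with a barred gene, 67.7% of 371 WT and 9.55% of 178 dKO cells carried a Cd40lg UMI themselves. In such classes of other clonotypes of at least 2 cells, the shares were 57.9% of 214 and 12.5% of 441.

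Mixed clonotypes were common in both libraries. Of 70 WT member clonotypes of at least 2 cells, 49 (70.0%, 57.9% to 80.4%) also held a cell of the Ifng, Il17a or Il17f class, 31 a counterpart cell, 28 another member and 8 (11.4%, 5.07% to 21.3%) a Foxp3 cell. Of 25 such dKO clonotypes, 11 (44.0%, 24.4% to 65.1%) held an Ifng, Il17a or Il17f cell, 13 a counterpart cell, 7 (28.0%, 12.1% to 49.4%) a Foxp3 cell and 3 another member. The clonemates were set beside cells of clonotypes of at least 2 cells that held no member. Among 498 WT clonemates outside the members, 40.8% were Ifng, Il17a or Il17f cells (36.4% to 45.2%) and 2.01% Foxp3 cells (0.967% to 3.66%), beside 34.2% (28.7% to 39.99%) and 8.10% (5.20% to 11.9%) of 284 cells of clonotypes without a member. Among 383 dKO clonemates, 37.1% were counterpart cells, 27.7% Foxp3 cells and 7.31% Ifng, Il17a or Il17f cells, beside 33.7%, 30.8% and 10.7% of 860 cells, with overlapping intervals for each of these classes. The intervals for Foxp3 cells of the WT library did not overlap, and cells of a clone are not independent. A larger clonotype is more likely to hold a member, and clone size was not matched between the 2 sets. The WT clonemates include cells of the clonotypes of 70 and 54 cells.

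**Figure D5:**
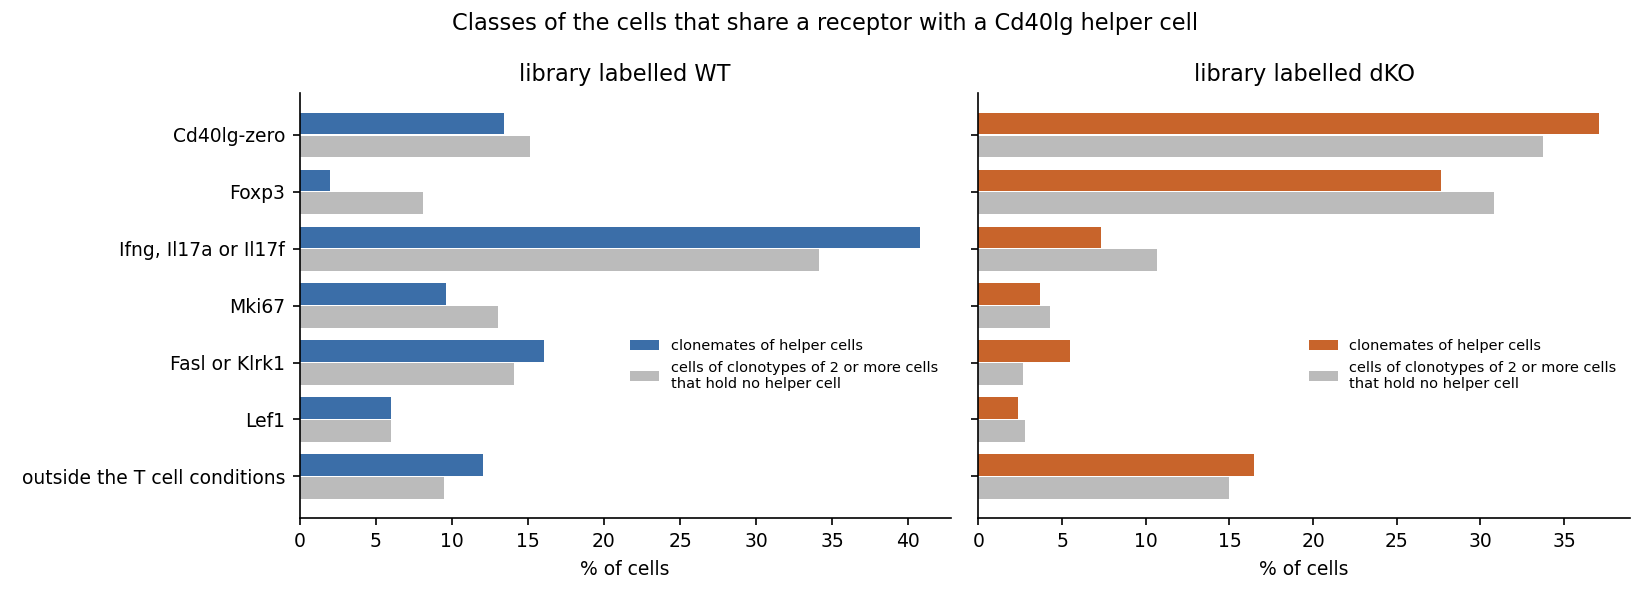
Classes of the cells that share a receptor clonotype with a Cd40lg helper cell (coloured bars, % of clonemates) beside cells of clonotypes of at least 2 cells that hold no helper cell (grey bars), in the WT and dKO libraries, with each cell in 1 class. Ifng, Il17a or Il17f cells are the largest class among WT clonemates (40.8%), and Cd40lg-zero and Foxp3 cells among dKO clonemates (37.1% and 27.7%). The Foxp3 bar of WT clonemates stands at 2.01% beside 8.10%, in sets of clonotypes that were not matched for size.

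The V genes of the dKO members differed from those of the dKO counterpart. TRAV6-1 was used by 3 of 110 dKO members with a TRA chain (2.73%, 0.566% to 7.76%) and by 16.8% of the counterpart and 15.7% of Foxp3 cells. TRBV13-1 was used by 10.3% of dKO members (6.30% to 15.6%), 26.2% of the counterpart and 27.7% of Foxp3 cells, and by 9.41% of WT members. Large clones can set such shares. The TRAV11 to TRAJ18 joint of invariant NKT cells was in 4 of 291 WT and 2 of 110 dKO members, and in 17 of 458 and 14 of 143 Ifng cells.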

How the data were processed

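The gene expression libraries were made with 10x Genomics 5′ reagents (version 2) and hold UMI counts for 32285 genes, which the authors deposited as filtered matrices after Cell Ranger 7.0.1 (per the file headers) with mm10. Of 10602 and 17645 deposited WT and dKO cells, 10556 and 17462 passed the filter of the study's methods (more than 200 genes, under 5% mitochondrial UMIs), slightly more than the study states for its own analysis. The receptor libraries were used through their contig tables, with read and UMI counts per contig deposited by the authors (6319 contigs of 3845 WT barcodes, 7495 contigs of 4906 dKO barcodes), joined by barcode.

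For each group of cells, raw UMIs were added up per gene and divided by the group's total to give CPM. A gene was tested in a comparison if it reached 50 CPM in either group, and over 2-fold is a log2 ratio beyond 1 in size. Intervals were exact (Poisson for CPM, conditional binomial for ratios, Clopper-Pearson for shares). For shares, each cell was thinned to 1000 UMIs, which drops shallower ones (170 WT and 81 dKO members). With 1 library per genotype no test across genes was run. Named genes were all genes of 13 lists and the 10 at each end of a comparison with at least 10 UMIs in the lower group, without receptor, immunoglobulin, mitochondrial, ribosomal protein and unnamed genes, and a few genes are not reported here. Genes that share reads with near-identical copies may have been split by the counting. No doublet caller was run, and doublets were addressed by leaving out cells with 2 or more TRB chains or the deepest 5% of cells. The summing and interval code was tested on simulated data. The members and lists were chosen with earlier results of these data known. Alternatives tried were TMM scaling (edgeR 4.0.16 in R 4.3.3), the mean of each cell's CPM, a minimum of 20 CPM, stricter Cd40lg and CD3 minimums, other thinning depths, left-out groups of cells and 1 cell per clonotype. Python 3.11.15 with numpy 2.4.6, pandas 2.3.3 and scipy 1.17.1 was used.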

Additional observations from a re-analysis of the deposited data

Results flagged for a closer look

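Ccr7 stood out because its difference between Cd40lg helper cells and Cd40lg-zero cells went in opposite directions in the libraries, by more than 1.5-fold in each. The log2 ratio was -1.28 in the WT library and 0.80 in the dKO library. The difference between the libraries was not tested, since each genotype had 1 library.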

How the results depend on the processing

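Each genotype had 1 library, so that no value could be checked against replicates and none could be left out. No paired analysis was possible because each genotype had 1 library. The share of members in the WT library was 4.23% with at least 2 Cd40lg UMIs, 8.41% with at least 2 CD3 UMIs, 13.5% of T cells and 10.7% when the rule was applied to cells thinned to 1000 UMIs, and in the dKO library it was 0.968%, 2.76% and 4.68% under the first 3 of these. The share of Tnfsf11 cells among members followed the depth, with 8.35% and 10.8% at 500 UMIs, 23.6% and 25.5% at 2000 UMIs, and 20.4% and 21.9% without thinning. By TRB alone, 46.5% of dKO members were in a clonotype of at least 2 cells.

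Between the libraries, 121 genes were higher and 164 lower in dKO members at a minimum of 20 CPM, and 213 and 290 with 1 cell per clonotype, where few cells remain. With at least 2 Cd40lg UMIs 141 genes were lower, and without cells carrying the Treg genes Ctla4, Ikzf2, Il2ra or Tnfrsf9, an alternative chosen after seeing the data, 127 were lower. The part of genes past 2-fold that were higher was 49.5%, and it was 34.7%, 31.4%, 42.3% and 56.9% with at least 2 Cd40lg UMIs, without cells carrying Treg genes, with 1 cell per clonotype and with TMM scaling. Against the Cd40lg-zero cells, 4 genes were higher and 16 lower in both libraries at 20 CPM, and 7 and 15 with at least 2 Cd40lg UMIs. In cells of 1000 to 3000 UMIs 3 genes were higher. The number higher was 2 without cells under 5% ribosomal protein UMIs and 2 without the deepest 5% of cells (an alternative chosen after seeing the data), and without cells carrying Treg genes 1 was lower.

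Of 1289 values of 62 named genes under the alternatives, 1111 moved by less than their counting interval, 173 moved by more and 5 reversed, all without cells carrying Treg genes. These were the dKO over WT ratio of Ccl4 (-0.0830) and, against the dKO Cd40lg-zero cells, those of Sh3rf1 (0.37), St3gal6 (-0.0334), Tcf7 (-0.00926) and S1pr1 (-0.0950). The cause was not tested.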
